A study of Hevea brasiliensis with 6 samples.

Results

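The comparison described here set unchilled leaves of the rubber tree clone ‘93-114’ against unchilled leaves of the clone ‘Reken501’, and it used 2 of the 6 libraries of the study, chosen by their labels. Both clones belong to *Hevea brasiliensis*. Both were one-year-old plants at the stage of 2 extension units (flushes of leaves) when they were sampled. Each library came from leaves of 3 plants mixed before RNA extraction, so each clone has 1 library in this comparison and the differences between them have no replicate check. The plants within a pool belong to one clone, and the pool hides the spread between them. The other 4 libraries came from leaves of the same clones after 1 h and 24 h at 4 °C, and they were used to ask whether a difference between the unchilled clones was seen again. They also entered the TMM and DESeq2 scaling factors, which came from all 6 libraries. The question was which transcripts differ between the clones before any cold is applied.

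The rubber tree is a tropical tree that is grown for latex, and low temperature limits where it can be planted. A clone is multiplied vegetatively, so trees of one clone share a genotype, while trees of 2 clones differ in genotype throughout the genome. A difference in RNA between unchilled clones can therefore be a difference in how strongly a gene is read, in its sequence, or in whether it is present, and counts of fragments do not tell these apart. The study describes ‘93-114’ as the cold-resistant clone and ‘Reken501’ as the cold-sensitive one.

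The measurement was RNA sequencing of leaf RNA, with fragments counted on unigenes, which are transcript sequences put together from the reads. Of the 167072 unigenes listed, 68027 are contigs of 16131 clusters of similar sequences and 99045 stand alone. The tables carry lengths and counts and pair no unigene with a gene name or a sequence, and 0 unigene IDs occur among the IDs of 50196 genes in the RefSeq table. Gene lists, pathways and leaf markers were therefore not analysed here, and unigenes are described by count, length and cluster. Control ‘93-114’ held 20.4 M fragments and control ‘Reken501’ held 21.2 M. A unigene with 0 fragments could hold up to 3, or 0.147 fragments per M in ‘93-114’ and 0.141 in ‘Reken501’. This limit and the exact intervals below cover counting error only. The Wilson intervals of shares treat unigenes as independent draws, which contigs of one cluster may not be. None of these intervals holds spread between plants or pools.

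More unigenes were read in unchilled ‘93-114’ than in unchilled ‘Reken501’. Fragments were found on 149456 unigenes in ‘93-114’ and on 144655 in ‘Reken501’, and 10 or more fragments on 94521 and 89867 of them. In all, 135298 unigenes were read in both libraries, 14158 in ‘93-114’ alone and 9357 in ‘Reken501’ alone. The unigenes read in one library alone were rare transcripts for the most part. They took 0.711% of the fragments of ‘93-114’ and 0.499% of those of ‘Reken501’. After cold the order of the clones was reversed. Fragments were found on 145375 unigenes in ‘93-114’ and 146921 in ‘Reken501’ after 1 h, and on 148455 and 154268 after 24 h. With 10 or more fragments the numbers were 77354 and 87850 after 1 h, and 82979 and 94219 after 24 h.

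Fragments were spread over the unigenes in nearly the same way in both clones. The most-read 100 unigenes of ‘93-114’ took 31.4% of its fragments, and those of ‘Reken501’ took 32.2%. The most-read 10000 took 77.8% and 79.5%. It took 788 unigenes to reach 50% of the fragments in ‘93-114’ and 708 in ‘Reken501’. The lists of the most-read 100 shared 77 unigenes, and those of the most-read 1000 shared 757. Of the 77 shared ones, 5 were called higher and 3 lower in ‘93-114’ by the rule given next, with log2 ratios between -1.47 and 1.68. Of the 23 on the ‘93-114’ list alone, 13 were called higher, and of the 23 on the ‘Reken501’ list alone, 13 were called lower. A place on one list alone favours a ratio towards that clone, so these directions follow from the choice.

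Unigenes with a higher and with a lower level in ‘93-114’ both made up several percent of those tested. A unigene was called when its fragments in the 2 libraries differed at an adjusted p of 0.001 or less (two-sided exact conditional binomial test, Benjamini-Hochberg adjustment over all tested unigenes) and by at least 2-fold. The log2 ratio is ‘93-114’ over ‘Reken501’, relative to the library totals, with 0.5 fragments added to each count. The test asks whether 2 libraries differ beyond counting error, and it does not test the clones, since no spread between pools enters it. In whole leaves, fewer cells of a type and less RNA per cell cannot be told apart. Of 158813 unigenes tested, 12826 (8.08%) were called higher and 9221 (5.81%) lower in ‘93-114’. With an assumed coefficient of variation between pools of 0.2, edgeR's exact test called 4832 higher and 3385 lower, and with 0.4 it called 671 and 474. The smallest sum of fragments on a called unigene was 14, and up to 13 fragments against 0 were not enough for a call.

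The size of the excess of higher over lower calls moved with the scaling between the libraries, and the excess was smaller with TMM and DESeq2's factors than with totals. Of all calls, 58.2% were higher with library totals (95% Wilson interval 57.5 to 58.8). TMM factors, which centre the bulk of the unigenes, moved every log2 ratio of this comparison by -0.11. With them 11409 unigenes (7.18%) were called higher and 10547 (6.64%) lower, which makes 52.0% higher. DESeq2's size factors gave 11176 (7.04%) and 10748 (6.77%), or 51.0% higher. Calls under both library totals and TMM numbered 11409 higher and 9221 lower. With the same cutoffs on a genome-based gene set, the paper reports more genes lower than higher in the unchilled cold-resistant clone. That balance is opposite to the excess of higher calls among the unigenes. Why genes and unigenes differ in this balance was not tested.

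The calls covered a wide range of sizes. At least 4-fold differences were found for 7491 higher and 4983 lower unigenes, at least 16-fold for 2885 and 1895, and at least 256-fold for 147 and 86. Past 1024-fold there were 18 higher and 10 lower unigenes. Higher calls outnumbered lower ones at each of these sizes under library totals and under TMM, where 17 and 12 unigenes were past 1024-fold. The ratios of unigenes with a fragment count near 0 in one library depend on the 0.5 fragments added.

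**Figure D1:**
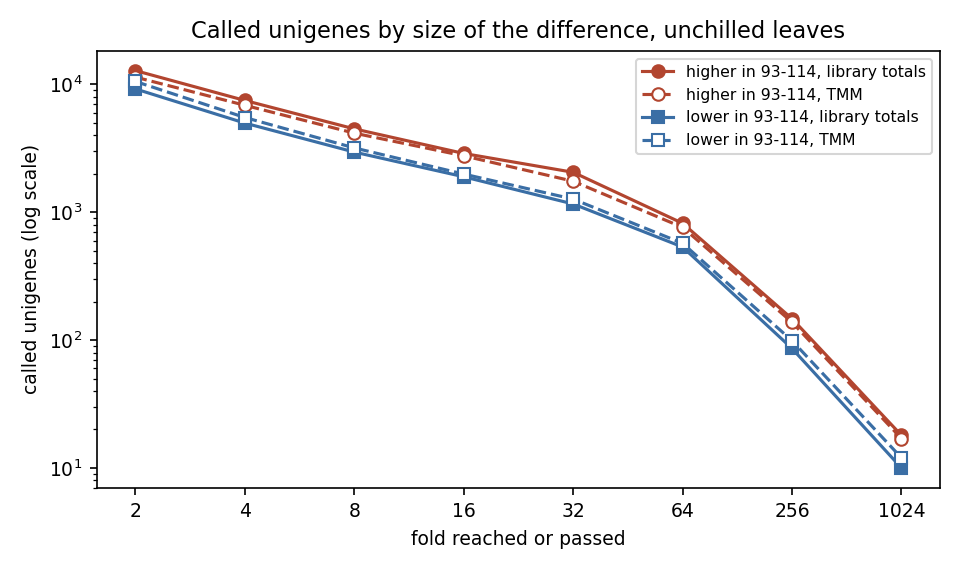
The number of called unigenes (vertical axis, log scale) that reach or pass a fold difference (horizontal axis), for unigenes higher (circles) and lower (squares) in unchilled ‘93-114’ than in unchilled ‘Reken501’. Solid lines use library totals and dashed lines TMM factors; at 2-fold there are 12826 higher and 9221 lower unigenes with totals and 11409 and 10547 with TMM.

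The called unigenes held a substantial part of both libraries. The 12826 higher ones took 18.4% of the fragments of ‘93-114’ and 5.22% of those of ‘Reken501’, with a median of 73 fragments in ‘93-114’ and 15 in ‘Reken501’. The 9221 lower ones took 4.12% of the fragments of ‘93-114’ and 14.8% of those of ‘Reken501’, with medians of 18 and 87 fragments. Among higher calls, 1807 (14.1%) had 0 fragments in ‘Reken501’, and among lower calls, 1171 (12.7%) had 0 in ‘93-114’. The unigenes that were not called took 77.5% of ‘93-114’ and 80.0% of ‘Reken501’. Their median length was 383 bases, against 909 bases for the higher and 773 for the lower calls, and their median abundance was 11 fragments, against 46 and 55. How far length and abundance account for who was called was not tested.

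Few unigenes accounted for much of the difference in fragments. Summed over the higher calls, ‘93-114’ had 131450 more fragments per M than ‘Reken501’. The 10 largest of these differences made up 20.9% of that sum and the 100 largest 41.1%. Over the lower calls ‘93-114’ had 106654 fewer fragments per M, of which the 10 largest differences made up 21.8% and the 100 largest 42.2%. The libraries themselves were concentrated. Their most-read 10 unigenes took 12.8% of the fragments in ‘93-114’ and 14.0% in ‘Reken501’, and their most-read 100 took 31.4% and 32.2%. A difference of at least 1000 fragments per M was found for 10 higher and 11 lower unigenes with at least 200 fragments in the higher library that were called under both scalings.

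The largest difference in fragments was that of Unigene23948_All, a transcript of 8085 bases. It had 363064 fragments in ‘93-114’ and 118314 in ‘Reken501’, which is 1.78% and 0.558% of the libraries and an FPKM (fragments per kilobase and per M fragments) of 2206 and 690. The ratio was 3.20, with a log2 ratio of 1.68 (95% exact interval 1.67 to 1.69). It made up 9.33% of the summed excess of all higher calls. The unigene was the third most read in ‘93-114’ and number 11 in ‘Reken501’. In the cold libraries the gap was not seen. There were 117592 fragments in ‘93-114’ and 120613 in ‘Reken501’ after 1 h, and 201503 and 216295 after 24 h, with log2 ratios of -0.02 and -0.12 by totals and 0.46 and 0.32 by TMM, and no call under either scaling. The high value of this unigene thus belonged to control ‘93-114’ alone among the 6 libraries when set relative to totals.

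The largest difference on the other side was that of Unigene12919_All, with 2042 bases. It had 51511 fragments in ‘93-114’ and 149057 in ‘Reken501’, an FPKM of 1239 and 3440, and was 2.78-fold lower in ‘93-114’ with a log2 ratio of -1.47 (95% exact interval -1.49 to -1.46). After 1 h of cold the fragments were 69440 in ‘93-114’ and 151288 in ‘Reken501’, and after 24 h they were 69632 and 172991. The log2 ratios in the cold, -1.11 and -1.33, passed 2-fold with library totals, but with TMM they were -0.63 and -0.89 and did not.

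The largest ratios belonged to unigenes with 0 fragments in one clone. CL7391.Contig1_All, with 3260 bases, had 3377 fragments in ‘93-114’ and 0 in ‘Reken501’, at least 1173-fold higher when 0 is taken as up to 3 fragments. In the cold it had 1815 fragments in ‘93-114’ and 0 in ‘Reken501’ after 1 h, and 1895 and 0 after 24 h. None of the 3 ‘Reken501’ libraries held a fragment of it. CL3590.Contig1_All, with 4352 bases, had 0 fragments in ‘93-114’ and 6726 in ‘Reken501’, at least 2151-fold lower in ‘93-114’. After 1 h it had 5 fragments in ‘93-114’ and 646 in ‘Reken501’, and after 24 h 6 and 14874. ‘Reken501’ therefore held this transcript in all 3 libraries, at levels that lay far apart, and ‘93-114’ was near 0 throughout. Both are contigs of clusters, between which the authors' counting could have divided fragments.

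The most-read unigene of both libraries was CL15970.Contig2_All, with 2286 bases. It took 2.17% of the fragments of ‘93-114’ (442634) and 3.38% of those of ‘Reken501’ (717264). Its log2 ratio of -0.64, or -0.74 with TMM, stayed under the 2-fold limit. In the cold the log2 ratio was -0.34 after 1 h and 0.58 after 24 h by totals, and 0.15 and 1.02 by TMM, so that it passed 2-fold at 24 h under TMM alone of these 2 scalings.

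The ratio between the clones varied with abundance. Over the 94059 unigenes that averaged 10 or more fragments in the 2 libraries, the median log2 ratio was 0.11, 63.1% of the unigenes lay within 2-fold, and 90% of the ratios lay between -2.12 and 2.61. Of these unigenes, 12.8% were called higher and 9.34% lower. With TMM the median was 0.01 and with DESeq2's factors -0.01, so the side on which the median falls is set by the scaling. Among 41540 unigenes with 10 to 30 fragments the median log2 ratio was 0.20, among 6209 with 300 to 1000 it was -0.08, among 1555 with 1000 to 3000 it was -0.13, and among 184 with 10000 or more it was 0.09. With TMM these medians were 0.10, -0.18, -0.23 and -0.02. Rarer unigenes thus leaned towards ‘93-114’ relative to those with 300 to 3000 fragments. The scaling shifts all ratios alike, so it cannot change this difference between classes.

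The spread of the ratios was wider among rare unigenes than among the most-read ones. The distance between the quartiles was 1.66 on the log2 scale at 10 to 30 fragments, 0.87 at 1000 to 3000, 0.92 at 3000 to 10000 and 0.82 at 10000 or more. The counting standard error of a single ratio, which is another measure than the distance between quartiles, had a median of 0.54 in the rarest and 0.01 in the most-read class. Calls reached 16.7% higher and 12.0% lower among the 30054 unigenes with 30 to 100 fragments, and were 11.4% and 10.3% in the most-read class. With TMM the calls in the most-read class were 8.15% and 10.3%, so lower calls were then the more frequent ones. How much of the spread lies between plants rather than between clones cannot be told from 1 pool per clone.

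**Figure D2:**
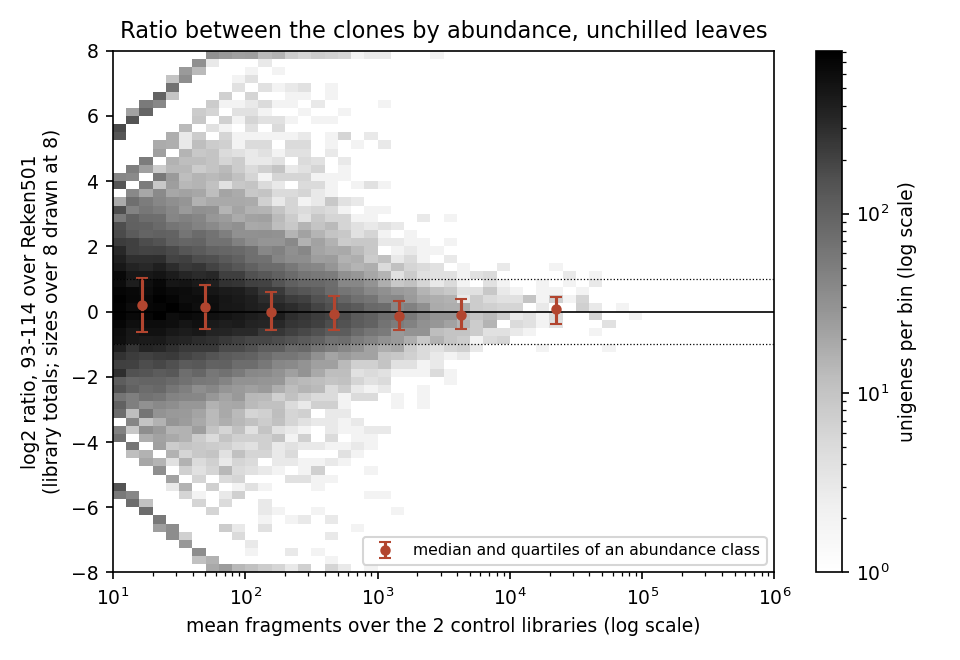
The log2 ratio of unchilled ‘93-114’ over unchilled ‘Reken501’ (vertical axis, library totals, sizes over 8 drawn at 8) against the mean fragments of a unigene (horizontal axis, log scale), with grey for the number of unigenes per bin. Points with bars give the median and quartiles of 7 abundance classes, from a median of 0.20 at 10 to 30 fragments to -0.13 at 1000 to 3000 and 0.09 at 10000 or more; dotted lines mark 2-fold, and the outer stripes are unigenes with few or 0 fragments in one library.

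Long unigenes were called higher more often than lower. Among the 11159 unigenes of at least 2400 bases that averaged 10 or more fragments, 15.6% were called higher and 7.19% lower, with a median log2 ratio of 0.22. Among the 14638 of 150 to 300 bases the shares were 8.35% and 7.78% and the median 0.06. With TMM the long ones were called higher in 13.7% and lower in 8.44% of cases, and the short ones in 7.43% and 8.79%. The balance thus leaned towards ‘93-114’ in the longest class under both scalings, and in the shortest class it changed side. Longer unigenes were also read more deeply, with a median of 84 fragments against 16 in the shortest class. Contigs of clusters and stand-alone unigenes differed less. Contigs were called higher in 13.8% and lower in 10.2% of 48270 cases, and stand-alone unigenes in 11.7% and 8.39% of 45789, with median log2 ratios of 0.11 and 0.12. Contigs had a median of 48.5 fragments and stand-alone unigenes 27.

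A set of transcripts was read in one unchilled clone and had 0 fragments in the other. At least 10 fragments against 0 were found for 2891 unigenes of ‘93-114’ and 1836 of ‘Reken501’. They took 0.517% of the fragments of ‘93-114’ and 0.378% of those of ‘Reken501’, with a median of 16 fragments on each side and a median length of 294 and 280 bases. With at least 50 fragments the numbers were 355 and 271, and with at least 200 they were 69 and 40, with median lengths of 1191 and 1018.5 bases. Of the 2891 unigenes, 1807 were called, and of the 1836, 1171, the rest having too few fragments. Among the 2891 were 991 contigs of clusters, and for 905 of these (91.3%) some other contig of the same cluster was read in ‘Reken501’. In ‘Reken501’ it was 578 of 631 contigs (91.6%) whose cluster was read in ‘93-114’. Any number of fragments counted as read here. With at least 10 fragments on the cluster the numbers were 818 (82.5%) and 505 (80.0%). For most contigs with 0 fragments the cluster as a whole was therefore still read in that clone. Nearly all clusters were read at control, 16060 of 16131 having a fragment in either library.

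The cold libraries showed how far these zeros were repeated in other libraries of the clone. Of the 2891 unigenes with 0 fragments in control ‘Reken501’, 1606 (55.6%) also had 0 in ‘Reken501’ after 1 h, 1363 (47.1%) after 24 h and 1135 (39.3%) at both times. At least 10 fragments were found for 96 (3.32%) and 219 (7.58%) of them. Of the 1836 with 0 in control ‘93-114’, 1156 (63.0%) had 0 in ‘93-114’ after 1 h, 1182 (64.4%) after 24 h and 931 (50.7%) at both, and 23 (1.25%) and 47 (2.56%) had at least 10. The other clone's own reading was also repeated for only a part of these unigenes. Of the 2891, 44.8% and 48.4% still had at least 10 fragments in ‘93-114’ after 1 h and 24 h, and of the 1836, 58.7% and 53.6% did in ‘Reken501’. A minimum of 10 fragments picks unigenes whose count was high in that one library, so some loss follows from the choice.

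Among the 69 unigenes with at least 200 fragments in ‘93-114’ and 0 in ‘Reken501’, the pattern was firmer. All 69 had at least 10 fragments in both cold libraries of ‘93-114’, a mark far below the 200 fragments that chose them. In ‘Reken501’, 53 had 0 after 1 h, 51 had 0 after 24 h and 43 had 0 at both times, and 0 and 1 of them reached 10 fragments. Their summed level was 1650, 1163 and 1059 fragments per M in ‘93-114’ at control, 1 h and 24 h, against 0 in the control and 2.15 and 1.99 in the cold libraries of ‘Reken501’. Of the 40 on the other side, 40 had at least 10 fragments in ‘Reken501’ after 1 h and 35 after 24 h. In ‘93-114’, 26 (65.0%) had 0 after 1 h, 21 (52.5%) after 24 h and 16 (40.0%) at both, and 0 reached 10 fragments at either time. On this side zeros after 24 h and at both times were repeated less often than among the 1836, with 64.4% and 50.7%. Their summed level in ‘93-114’ was 2.35 and 2.14 fragments per M in the cold, against 1463, 937 and 1833 in ‘Reken501’ at control, 1 h and 24 h.

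**Figure D3:**
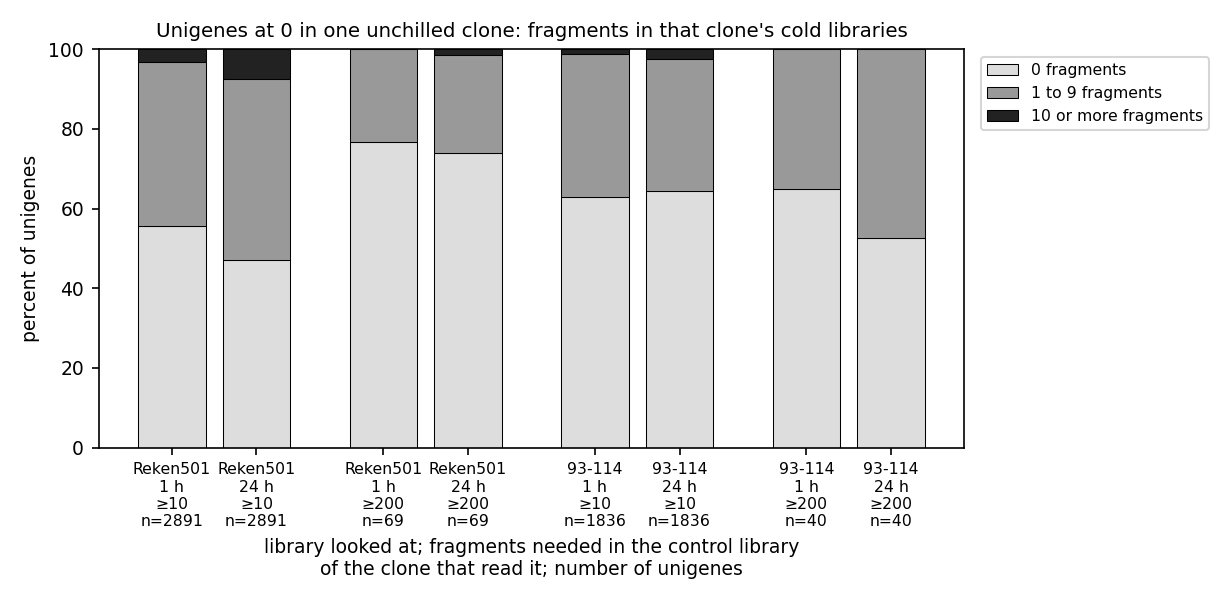
Shares of unigenes (vertical axis, percent) with 0, 1 to 9, or 10 and more fragments in the cold libraries of the clone in which they had 0 at control, for unigenes with at least 10 or at least 200 fragments in the control library of the other clone. The left 4 bars look at ‘Reken501’ (2891 and 69 unigenes read in ‘93-114’) and the right 4 at ‘93-114’ (1836 and 40 read in ‘Reken501’); at least 10 fragments were reached by 7.58% at most.

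A difference called between the unchilled clones was usually found in the same direction between their cold-treated libraries. The counts of the cold libraries are separate measurements of the same 2 clones, though the TMM and DESeq2 factors of the control libraries draw on them. With TMM factors, 89.3% of the higher calls that were read after 1 h had a ratio above 0 there, and 88.5% after 24 h. Of the lower calls, 88.3% and 88.2% had a ratio below 0. Among unigenes not called, 50.4% and 47.6% had a ratio above 0. With library totals, 78.9% and 75.9% of the higher calls were above 0 and 94.4% and 94.9% of the lower calls below it, while 37.8% and 31.2% of those not called were above 0. Calls in the same direction were made for 50.6% (95% Wilson interval 49.7 to 51.5) of the 11409 higher unigenes after 1 h and for 46.7% (45.7 to 47.6) after 24 h, where 8.18% and 6.83% of all tested unigenes were called higher. For the 10547 lower ones the shares were 47.3% (46.3 to 48.2) and 41.7% (40.8 to 42.7), where 6.01% and 4.83% of all tested unigenes were called lower. Unigenes called at control had more fragments than those not called. Among unigenes that averaged 10 or more fragments at control, 12% and 9.54% were called higher and 9.66% and 7.74% lower after 1 h and 24 h with TMM. Calls in the opposite direction were rare. They were made for 78 and 42 of the higher and for 173 and 96 of the lower unigenes, 0.684%, 0.368%, 1.64% and 0.910% of them.

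With library totals the same comparison was lopsided. Of the 12826 higher unigenes, 36.6% (35.7 to 37.4) were again called higher after 1 h and 32.1% (31.3 to 32.9) after 24 h, against 5.37% and 4.12% of all tested. Of the 9221 lower ones, 65.4% (64.4 to 66.3) and 59.7% (58.7 to 60.7) were again called lower, against 11.7% and 9.8% of all tested. Among unigenes averaging 10 or more fragments at control, 8.03% and 5.86% were called higher and 18.7% and 15.5% lower. With DESeq2's factors, where 8.2% and 7.37% of all tested were called higher and 6% and 4.44% lower, the repeated shares were 51.1% and 49.0% of the higher and 46.8% and 39.6% of the lower unigenes. The bulk of the unigenes moved in the same way. Those not called at control had a median log2 ratio of -0.49 after 1 h and -0.51 after 24 h with totals, and of 0.01 and -0.06 with TMM. Which direction was repeated more often was therefore set by the scaling, while shares above those of all tested unigenes were found under both. At both cold times, 4437 higher and 3557 lower calls were repeated with TMM, 38.9% and 33.7%, and 3379 and 4766 with totals, 26.3% and 51.7%. How many of all tested unigenes were called the same way at both times was not counted. Their number cannot pass the number called at 24 h alone. Of all tested unigenes, 6.83% were then called higher and 4.83% lower with TMM, and 4.12% and 9.8% with totals.

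Larger differences were repeated more often. With TMM, 28.6% of the 4542 unigenes that were 2- to 4-fold higher at control were called higher at both cold times, 40.6% of those 4- to 8-fold higher and 57.1% of the 1749 that were at least 32-fold higher. For lower unigenes the shares were 23.2% of 5036, 37.6% and 52.2% of 1268. With library totals they were 12.2% at 2- to 4-fold and 46.7% at 32-fold or more for higher unigenes. For lower ones they were 47.4% and 61.8%, and the rise was not steady, with 55.0% at 8- to 16-fold and 52.9% at 16- to 32-fold. As above, the share at both times over all tested unigenes was not counted. A repeat needs at least 2-fold again, which calls just past 2-fold miss more easily. The largest ratios rested on fewer fragments, with a median abundance of 19 for the higher and 19.5 for the lower unigenes past 32-fold, against 76.5 and 89 between 2- and 4-fold. Across the 94059 unigenes that averaged 10 or more fragments, Spearman's rho between the ratio at control and the ratio in the cold was 0.53 after 1 h and 0.52 after 24 h. It was 0.66 and 0.68 across the 22465 with at least 100. Unigenes are no replicates of a clone, and the ratios share the 2 clones and the unigene set.

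**Figure D4:**
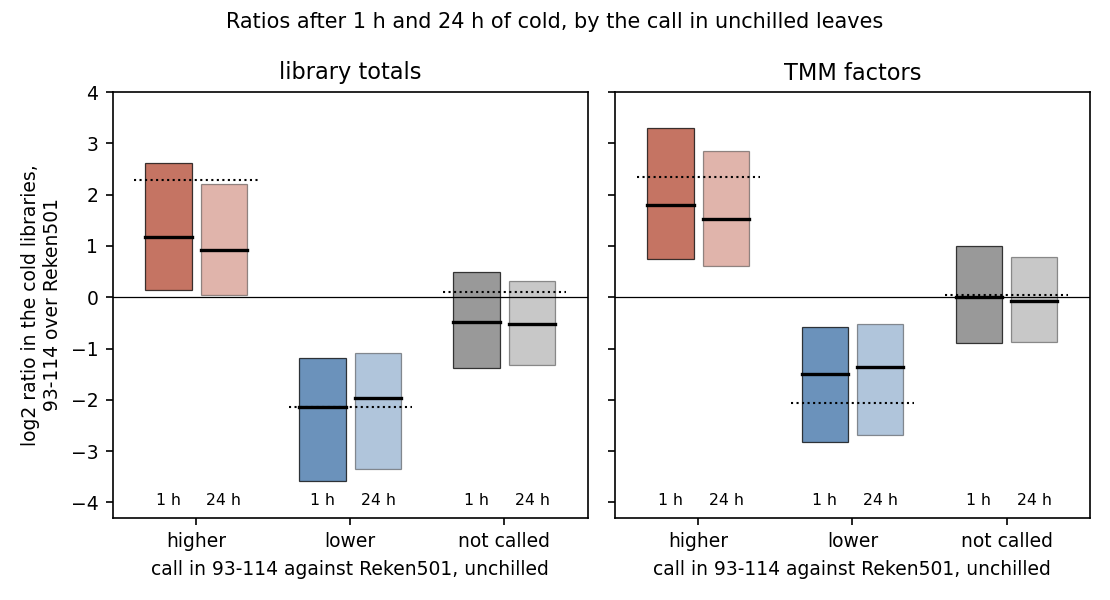
Log2 ratios of ‘93-114’ over ‘Reken501’ (vertical axis) at 1 h and at 24 h in the cold for unigenes called higher, called lower or not called between the unchilled clones (horizontal axis), with library totals on the left and TMM factors on the right. Boxes span the quartiles, thick lines are medians and dotted lines the median at control; with TMM the medians after 1 h and 24 h are 1.80 and 1.52 for higher calls, -1.49 and -1.37 for lower calls, and 0.01 and -0.06 for those not called.

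Some clusters held contigs that differed between the clones in opposite directions. Of the 16131 clusters, 6945 held at least 1 called contig and 2697 at least 2. In 1402 clusters, 52.0% of those with at least 2 calls, one contig was called higher and another lower in ‘93-114’. Since 58.2% of all calls were higher and the rest lower, calls in both directions within a cluster would also arise if clusters had no bearing on direction, and this share was not tested against that. In 795 clusters all called contigs (at least 2) were higher and in 500 all were lower. The number of clusters called both ways hardly moved with the scaling, at 1409 with TMM and 1404 with DESeq2's factors. These 1402 clusters have a median of 5 contigs, from 2 to 95. They hold 2142 of the higher calls (16.7%) and 1798 of the lower calls (19.5%), and took 10.7% of the fragments of ‘93-114’ and 10.3% of those of ‘Reken501’.

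Summed over their contigs, most of these clusters differed little between the clones. The summed fragments gave a median log2 ratio of -0.01, with quartiles at -0.44 and 0.43, and 1168 clusters (83.3%) lay within 2-fold, while 122 were at least 2-fold higher and 112 at least 2-fold lower in ‘93-114’. Calls in both directions offset each other in a sum, so a value near 0 partly follows from the choice of clusters. Over all clusters, 9.66% of the 16060 tested sums were called higher and 7.90% lower, against 10.5% and 7.64% of the 66443 tested contigs.

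The order of the contigs within a cluster was repeated in the cold libraries. For each of the 1402 clusters the most-read higher contig was set against the most-read lower one. A difference of log2 ratios within a cluster is free of the scaling between libraries. At control it had a median of 5.07, which the choice of contigs fixes as positive. In the cold it was positive in 1388 clusters (99.0%) after 1 h, with a median of 4.86, and in 1387 (98.9%) after 24 h, with a median of 4.59. It was positive at both times in 1379 (98.4%). In the 9765 other clusters with at least 2 contigs of a mean of 10 fragments, the difference between the 2 most-read contigs kept its control sign in 71.7% after 1 h and 69.5% after 24 h, but these differences were smaller at control, with a median of 0.78. At a like size the gap narrowed. Where the difference at control was 2 to 4 on the log2 scale, the sign was kept in 97.4% and 97.8% of 456 clusters called both ways and in 91.2% and 90.2% of 1212 others. At 4 or more it was kept in 99.8% and 99.5% of 946 and in 98.9% and 99.2% of 528. The gap between the 2 kinds of cluster was not tested.

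The largest cluster called both ways by summed fragments was CL9005, with 8 contigs. Its sum was 142010 fragments in ‘93-114’ and 121479 in ‘Reken501’, 6976 and 5725 fragments per M and a log2 ratio of 0.29. Contig 2 held 23.3% of the cluster in ‘93-114’ and 57.6% in ‘Reken501’, with 33128 and 70015 fragments and a log2 ratio of -1.02. Contig 3 held 19.1% in ‘93-114’ and 0.365% in ‘Reken501’, with 27110 and 444 fragments and a log2 ratio of 5.99. Contig 7 had 3035 fragments in ‘93-114’ and 208 in ‘Reken501’. Contig 1 had 40896 and 20056, with a log2 ratio of 1.09 that passed the 2-fold limit with totals, while the 0.98 with TMM did not. Contig 5 held 25.3% and 23.9% and was not called.

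By share of the cluster, contigs 2 and 3 of CL9005 kept the order of the clones after cold. Contig 1 did not at 1 h. Contig 3 held 24.0% and 22.4% of the cluster in ‘93-114’ after 1 h and 24 h, against 0.243% and 0.461% in ‘Reken501’. Contig 2 held 29.0% and 22.8% in ‘93-114’, against 54.8% and 51.6% in ‘Reken501’. Contig 1 held 28.8% in unchilled ‘93-114’ and 16.5% in unchilled ‘Reken501’. After 1 h its share was 19.8% in ‘93-114’ and 23.9% in ‘Reken501’, and at 24 h it was 22.7% in ‘93-114’ and 16.6% in ‘Reken501’. By fragments per M the picture differed. Contig 2 stood at 4630 in ‘93-114’ and 3417 in ‘Reken501’ after 1 h, and at 2817 and 3104 after 24 h. Its lower level in ‘93-114’ at control was thus not seen at 1 h. Contig 1 was higher in ‘93-114’ at each time, with 3161 against 1491 after 1 h and 2797 against 1001 after 24 h. So was contig 3, with 3844 against 15.1 and 2770 against 27.8. The sum of the cluster did not stay alike. It was 15986 and 12337 fragments per M in ‘93-114’ after 1 h and 24 h, against 6235 and 6019 in ‘Reken501’.

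**Figure D5:**
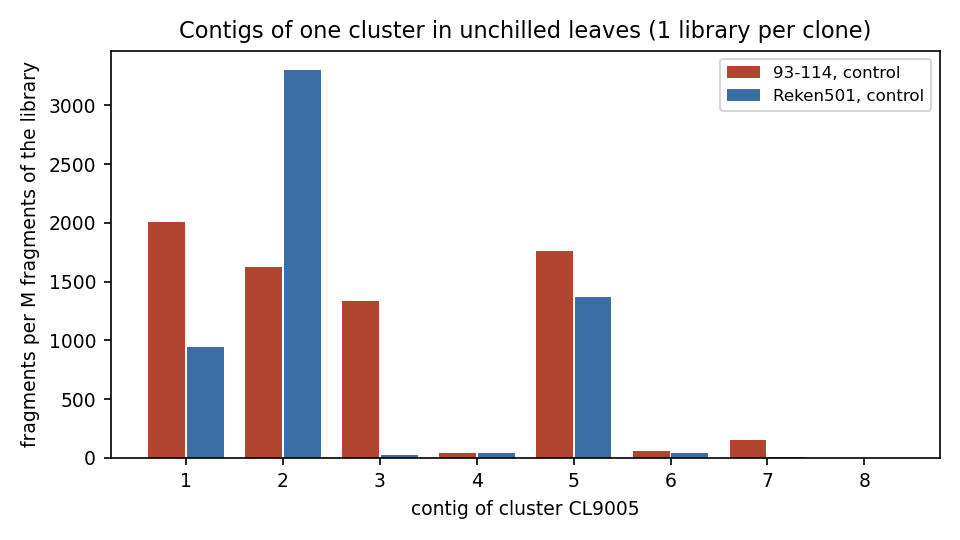
Fragments per M fragments of the library (vertical axis) on the 8 contigs of cluster CL9005 (horizontal axis) in unchilled ‘93-114’ and ‘Reken501’, with 1 library per clone and no error bars. Contig 3 stands at 1332 in ‘93-114’ and 20.9 in ‘Reken501’, contig 2 at 1627 and 3300, and contig 8 at or near 0 in both.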

How the data were processed

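Leaf RNA of 2 rubber tree clones was sequenced in 6 libraries, each made from 1 pool of plants. The authors cleaned the reads and deposited 4 tables of unigenes with lengths, raw fragment counts per unigene, FPKM and their own comparisons of cold with control (log2 ratios, p-values and false discovery rates), which were not used. The deposited FPKM equals the count over length and library total to within 5e-05. How the unigenes were assembled and counted is not given in the sources used here. The methods of the paper describe a genome-based gene set that the tables do not carry.

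Counts of control ‘93-114’ and control ‘Reken501’ were joined by unigene, with a missing unigene taken as 0. The 2 tables that hold each control column differed in 0 values. Unigenes with a fragment in either library were tested on the counts, with Python 3.11.15, numpy 2.4.6, pandas 2.3.3 and scipy 1.17.1. TMM factors of all 6 libraries came from edgeR 4.0.16 and size factors from DESeq2 1.42.0 (R 4.3.3). The calling was tested on simulated data. Unigenes were named by a rule: among unigenes called under both scalings with at least 200 fragments in the higher library, the largest ratio and the largest difference in each direction, besides the most-read unigene of each library. The largest cluster called both ways was described by its name. The comparison, lists and rules were chosen with earlier results of these data known. Alternatives tried were other scalings, filters, thresholds, numbers of fragments added, an assumed spread between pools, drawing down and summing contigs.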

Additional observations from a re-analysis of the deposited data

Results flagged for a closer look

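The median log2 ratio of ‘93-114’ over ‘Reken501’, over unigenes averaging 10 or more fragments in the 2 libraries compared, was 0.11 in unchilled leaves, -0.53 at 1 h and -0.46 at 24 h in the cold. It stood out because the control pair lay on one side of 0 and both cold pairs on the other. The difference between the times was not tested, since a single library stands for each clone at each time. Scaled with TMM the medians were 0.01, -0.04 and -0.02, and with DESeq2's size factors -0.01, -0.04 and 0.04.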

How the results depend on the processing

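Each clone has 1 pool at control, so neither plants nor pools give a spread, and fewer than 14 fragments in all never gave a call. No paired analysis was possible because every group holds 1 library. The numbers of higher and lower calls stayed within 1.5 times under TMM, DESeq2's size factors, totals taken without the top 100 unigenes, an average of 10 or more fragments and 5 fragments added. They were 22926 and 15452 at an adjusted p of 0.05, 7491 and 4983 at a log2 ratio of at least 2, 4832 and 3385 with edgeR's exact test and an assumed coefficient of variation of 0.2, 671 and 474 with 0.4, and 7330 and 5336 with contigs of a cluster summed, where fewer features were tested. The share of calls that were higher was 52.0% with TMM, 51.0% with DESeq2's factors, 56.7% without the 100 most-read unigenes, 59.7% at an adjusted p of 0.05, 60.1% at a log2 ratio of at least 2, and 51.7% with TMM factors from the control pair alone, an alternative chosen after seeing the data. The median log2 ratio was 0.0059 with TMM, -0.0093 with DESeq2's factors, 0.086 without the 100 most-read, 0.14 at a mean of at least 1 fragment, -0.037 at a mean of at least 100 and 0.060 with contigs summed. Unigenes read in ‘93-114’ with 0 in ‘Reken501’, and the reverse, numbered 6277 and 3969 at a minimum of 5 fragments and 355 and 271 at 50. Drawing down to the smaller total and summing contigs kept both within 1.5 times.

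For higher calls repeated after 1 h and 24 h, and lower calls repeated after 1 h and 24 h, in that order, the shares were 50.6%, 46.7%, 47.3% and 41.7% with TMM, and 51.1%, 49.0%, 46.8% and 39.6% with DESeq2's factors. They were 40.6%, 36.2%, 59.8% and 53.5% without the 100 most-read unigenes, 37.9%, 33.0%, 67.3% and 61.6% at a mean of at least 10 fragments, and 38.1%, 33.4%, 62.2% and 56.6% at a log2 ratio of at least 2. Clusters called both ways numbered 565 at a log2 ratio of at least 2 and stayed within 1.5 times of 1402 under the other alternatives run. The cause of these changes was not tested.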
